A study of Drosophila melanogaster with 3 samples.

Results

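The nuclear genes for subunits of the oxidative phosphorylation complexes were examined for binding of Seven-up (svp), the fly member of the COUP-TF nuclear receptors, in Drosophila melanogaster at the start of metamorphosis. The members were defined by symbol alone, as nuclear protein-coding genes whose symbol begins with ND-, Sdh, UQCR, COX or ATPsyn, with earlier results of these data known. They numbered 88 of the 13968 protein-coding genes on the chromosome arms. By complex, 40 belonged to complex I, 8 to complex II, 9 to complex III, 16 to complex IV and 15 to complex V. One of the 88, Sdhaf3, is an assembly factor and not a subunit. A subset of 24 members carries a symbol ending in L, or in L and a digit, and is called the testis-type paralogues here after the usual expression of such copies, which was not measured. ND-MNLL was left out of that subset because its last letters are part of an amino acid string. The remaining 64 are called the standard members.

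Chromatin was taken from whole white prepupae, males and females pooled, of the transgenic line svp-GFP, in which svp with GFP at its C-terminus is stably expressed. It was sonicated and precipitated with an antibody against GFP in 3 biological replicates of a single group. The sources used here do not state how many animals entered each replicate or whether the line also keeps untagged svp. With 3 samples of a single group and no control sample, groups were not compared. In whole animals, strong binding in a few cells and weaker binding in many cannot be told apart.

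Complex I oxidises NADH and complex II oxidises succinate. Both pass electrons through ubiquinone to complex III and from there through cytochrome c to complex IV, which reduces oxygen. Complex V, the ATP synthase, uses the resulting proton gradient to make ATP. Most subunits are encoded in the nucleus, and many of the Drosophila genes have a duplicate that is expressed mainly in the testis. COUP-TF receptors bind repeats of the sequence AGGTCA.

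Each replicate list holds 30000 peaks, so the lists are alike in length whatever the depth of the libraries, which is unknown. Ranks count from the highest signal value in a list, and the signal itself has no stated scale. The lists are permissive: 5345 peaks of replicate 1, 10608 of replicate 2 and 7307 of replicate 3 had a q-value of 0.05 or less. The pooled list, called on the reads of all 3 replicates, also holds 30000 peaks. Another list was thresholded by the irreproducible discovery rate (IDR), a measure of how alike peaks rank between replicates. This IDR-thresholded list holds 5443 peaks, 5425 of them on the chromosome arms, with signal values from 119.6 to 3228.2. A call in it does not mean a peak in all 3 replicates: its summits at COX7B, ND-MNLL and SdhA had no replicate 1 peak over them. Replicate 1 stood apart at the standard members, as described below, and the counts it bears on most are also given for replicates 2 and 3 alone, an addition made after seeing the data.

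The summit sequences below are from the RefSeq dm6 genome, plus strand, 5′ to 3′, 101 bases each, with the summit base in capitals. The first 4 are summits of members in the IDR-thresholded list that lay outside exons, and the last is the replicate 3 summit between ND-51 and its neighbour, a peak that was found in every replicate but not in the IDR-thresholded list.
COX7AL2, intron, chr2L:2197070-2197170: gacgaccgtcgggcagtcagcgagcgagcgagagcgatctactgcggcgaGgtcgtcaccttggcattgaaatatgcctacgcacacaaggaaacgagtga
ND-ASHI, upstream, chrX:6679337-6679437: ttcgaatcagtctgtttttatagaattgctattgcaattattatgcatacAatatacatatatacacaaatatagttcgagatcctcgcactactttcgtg
ND-75, upstream, chrX:8252415-8252515: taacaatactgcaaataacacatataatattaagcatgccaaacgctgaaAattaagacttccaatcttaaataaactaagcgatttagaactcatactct
COX7B, upstream, chr3L:17425312-17425412: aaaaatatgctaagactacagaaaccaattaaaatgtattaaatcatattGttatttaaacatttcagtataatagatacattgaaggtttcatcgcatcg
ND-51, upstream, chr2L:6062880-6062980: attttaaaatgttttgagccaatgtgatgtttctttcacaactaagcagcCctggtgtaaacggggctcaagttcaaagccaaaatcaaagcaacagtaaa
Their base composition was uneven. The COX7AL2 summit was 58.4% G and C, above the upper quartile of 47.5% over all 5425 summits of the IDR-thresholded list on the arms. The COX7B summit was 24.8% and the ND-75 summit 28.7%, both below the lower quartile of 29.7%. The ND-ASHI summit at 30.7% and the ND-51 summit at 37.6% lay within the quartiles, around a median of 37.6%. None of the 5 sequences held any of the motifs searched, which are given further on.

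In the IDR-thresholded list, a summit in the gene body or at most 1000 bp from a TSS was found for 8 of the 88 members, a share of 9.09% (exact binomial 95% interval 4.01% to 17.1%). The same rule called 20.3% of all protein-coding genes. The interval treats the members as independent draws from a larger set, which they are not, so it is no test against this share. The 8 genes were ND-15, ND-75, ND-ASHI and ND-MNLL of complex I, SdhA of complex II, COX7B and COX7AL2 of complex IV and ATPsynCF6 of complex V. No complex III member was called among 9, a count for which the interval reaches 33.6%. This count moved with the settings. It was 3 when each summit went only to the gene with the nearest TSS, against 15.9% of all genes. The 3 include ND-MNLL, which shares a TSS with CG45089. Without a replicate, a summit of the same IDR-thresholded list was kept only where it lay in a peak among the 5000 highest of both remaining replicates, a rule that can only lower the count and that adds a limit on rank. It left 4 members without replicate 2, 5 without replicate 3 and 6 without replicate 1, against 14.6%, 14.6% and 16.0% of all genes. Counting only summits within 1000 bp of a TSS left 7 members, 7.95% against 16.1% of all genes, because the ND-15 summits all lay deep in the gene. Members are short genes, with a median body of 1097 bp against 2164 bp over all genes, and a rule that accepts the body favours long ones. They are also crowded: 51 of 88 (58.0%) had a TSS of another gene within 1000 bp of their own, against 42.8% of all genes. The part of gene length and crowding in the lower share was not tested.

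The strongest peak of any member lay in COX7AL2, a testis-type paralogue of COX7A, a small subunit of cytochrome c oxidase. In the IDR-thresholded list the peak at chr2L:2196863-2197403 had a signal of 1294.6 and rank 75. Its summit fell in an intron, 792 bp downstream of the outermost TSS. The signal was 299.4 in replicate 1, 606.5 in replicate 2 and 380.4 in replicate 3, at ranks 165, 47 and 85. The peak was near the top of the list in all 3 replicates, with summits 774 to 798 bp from that TSS. 2 further summits of the IDR-thresholded list met the rule for COX7AL2, at signals of 171.8 and 129.0. Another strong peak lay just outside the window, 1410 bp from the TSS, with a signal of 991.1 and rank 153. COX7A, the parent gene, and COX7AL, its other copy, had no peak in any replicate list.

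Among complex I genes the highest IDR-thresholded peak near a TSS was at ND-ASHI, an accessory subunit homologous to mammalian NDUFB8. The peak at chrX:6679214-6679547 had a signal of 732.1 and rank 328, with a summit 269 bp upstream of the TSS. Its rank was 263 in replicate 1, 629 in replicate 2 and 257 in replicate 3, with signals of 251.9, 233.2 and 236.0. The summit lay in an intron of Fum1, the fumarase gene of the citric acid cycle, which is transcribed from the other strand and whose nearest TSS was 253 bp away. The peak was high in every replicate, and its position assigns it to either gene.

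ND-75, the large iron-sulfur subunit on the NADH side of complex I, had an IDR-thresholded peak at chrX:8252237-8252692 with a signal of 336.6 and rank 1503. Its rank was 1244 in replicate 1, 1925 in replicate 2 and 1655 in replicate 3. The summit was intergenic, 778 bp upstream of ND-75 and 205 bp from the TSS of CG1632. ND-MNLL, an accessory subunit, had a peak at chrX:7892464-7892919 with a signal of 136.3 and rank 4788. It had no peak in replicate 1 and ranks of 6083 and 4899 in replicates 2 and 3. That summit lay 869 bp downstream of the TSS, past the end of the short gene, and CG45089 is annotated with the same TSS.

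ND-15, an accessory subunit, was called through its annotated body and not through its promoter. All 8 of its summits in the IDR-thresholded list lay within its body and 0 lay within 1000 bp of its TSSs. The body spans 41305 bp and encloses 10 other protein-coding genes, whereas the canonical transcript spans 942 bp. The highest of these summits had a signal of 557.0, with ranks of 407, 555 and 1239 in replicates 1, 2 and 3, and lay 19085 bp from the nearest ND-15 TSS. The TSSs nearest to the 8 summits belonged to ovm, CG3164, CG4822 and Gs1, a glutamine synthetase gene. With only the canonical transcript of each gene, ND-15 and ND-MNLL were not called and the members called numbered 6, against 19.4% of all genes.

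The other 3 standard members called in the IDR-thresholded list had lower signals. SdhA, the flavoprotein of succinate dehydrogenase, had a peak at chr2R:19396658-19397113 with a signal of 257.9 and rank 2225, 915 bp upstream of its TSS and 114 bp from that of cer, a cysteine protease inhibitor gene. Replicates 2 and 3 had the same peak at ranks 3009 and 1459, but with summits 1001 and 1005 bp from SdhA, just outside the window, and replicate 1 had none there. COX7B, a small subunit of cytochrome c oxidase, had a peak at chr3L:17425134-17425589 with a signal of 207.8 and rank 2895, 115 bp upstream of its TSS. Its ranks were 2455 in replicate 2 and 3814 in replicate 3, and replicate 1 had no peak. ATPsynCF6, coupling factor 6 of the peripheral stalk of the ATP synthase, had a peak at chr3R:23356056-23356511 with a signal of 159.8 and rank 3993, 220 bp upstream. The peaks over that summit had ranks of 4885, 3599 and 5625 in replicates 1, 2 and 3, and the summit lay 6 bp from a TSS of Sec13, a coat and nuclear pore protein gene. Of these 3 genes only ATPsynCF6 had a peak over the summit in all 3 replicates.

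**Figure D1:**
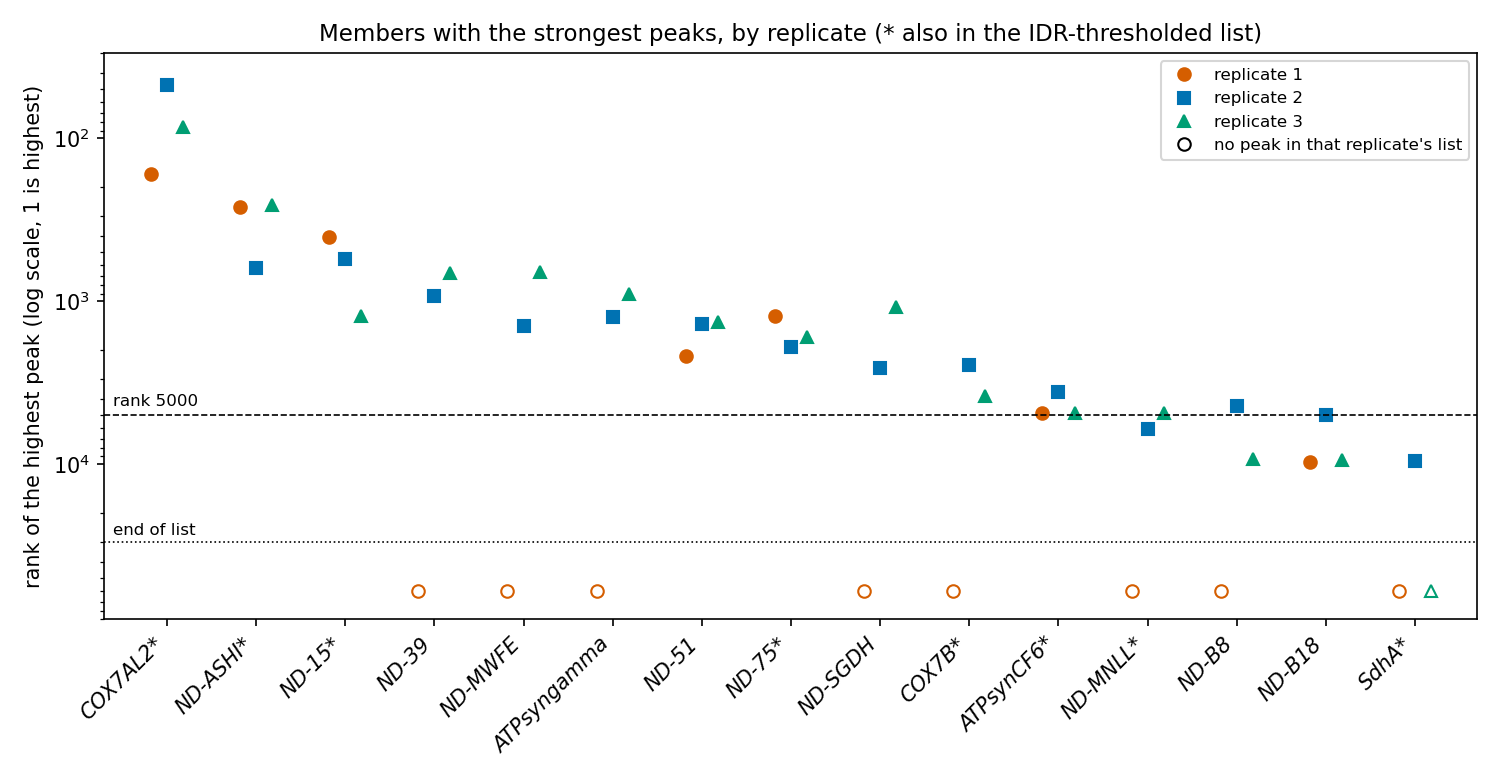
Rank of the highest peak of each of the 15 members with an IDR-thresholded summit or a peak among the 5000 highest of a replicate. The vertical axis is logarithmic, and symbols mark replicates 1, 2 and 3. Open symbols mark lists without a peak that met the rule for the gene. At SdhA the rule leaves out peaks of replicates 2 and 3 at ranks 3009 and 1459, with summits 1001 and 1005 bp from its TSS. The filled symbol of replicate 2 at SdhA is another peak, at rank 9579 and 166 bp upstream. At ATPsynCF6 the replicate 3 symbol is a peak at rank 4902, 967 bp upstream, and not the peak over the IDR-thresholded summit. COX7AL2 stands highest in all 3 replicates, and open symbols are mostly those of replicate 1.

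Several members had high peaks in replicates that were missing from both combined lists. ND-51, the flavoprotein that binds NADH in complex I, had ranks of 2160, 1390 and 1339 in replicates 1, 2 and 3, with signals of 76.2, 157.6 and 105.2 and summits 113, 122 and 173 bp upstream of its TSS. These peaks overlapped the space between ND-51 and CG13994, whose TSSs lie 232 bp apart on opposite strands. Neither the pooled list nor the IDR-thresholded list held a peak meeting the rule for ND-51. It was thus a peak of all 3 replicates at ranks better than those of COX7B or ATPsynCF6, which the IDR-thresholded list kept.

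4 more members shared this absence and had high peaks in replicates 2 and 3 but none in replicate 1. ND-39, an accessory subunit homologous to mammalian NDUFA9, had ranks of 927 and 675 in replicates 2 and 3, at an intronic summit 142 bp from a TSS of the zinc transporter gene ZnT77C in replicate 2. ND-MWFE, a membrane subunit of complex I, had ranks of 1426 and 664, in the 221 bp that separate its TSS from that of the peptidase gene TppII. ND-SGDH, another accessory subunit, had ranks of 2595 and 1091 beside RhoGAP68F, whose TSS lies 284 bp from its own on the other strand. ATPsyngamma, the rotating central stalk of the ATP synthase, had ranks of 1257 and 908, with a summit 19 bp downstream of its TSS in replicate 2, and the TSS of yata lies 56 bp away. All 5 genes have as their nearest neighbour a TSS on the opposite strand within 1000 bp. So do 34.4% of all genes, and 44.0% of all genes with an IDR-thresholded summit or a peak among the 5000 highest of a replicate.

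Over all genes, a peak among the 5000 highest of at least 2 replicates together with none in the pooled list was found for 220 of 13968 (1.58%). The 5 members make up 5.68% of 88. This category was defined after these genes had been seen, so the shares are a description only. Put against the genes with such replicate peaks, they were 5 of 11 members and 220 of 2830 genes. For peaks among the 5000 highest of all 3 replicates the counts were 1 of 6 members, ND-51, and 8 of 1984 genes, the 8 being 0.0573% of all genes. By peak, 2.52% of the 5000 highest peaks of replicate 1 had no counterpart in the pooled list, 11.4% of those of replicate 2 and 8.46% of those of replicate 3. The reason for the absence was not tested.

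**Figure D2:**
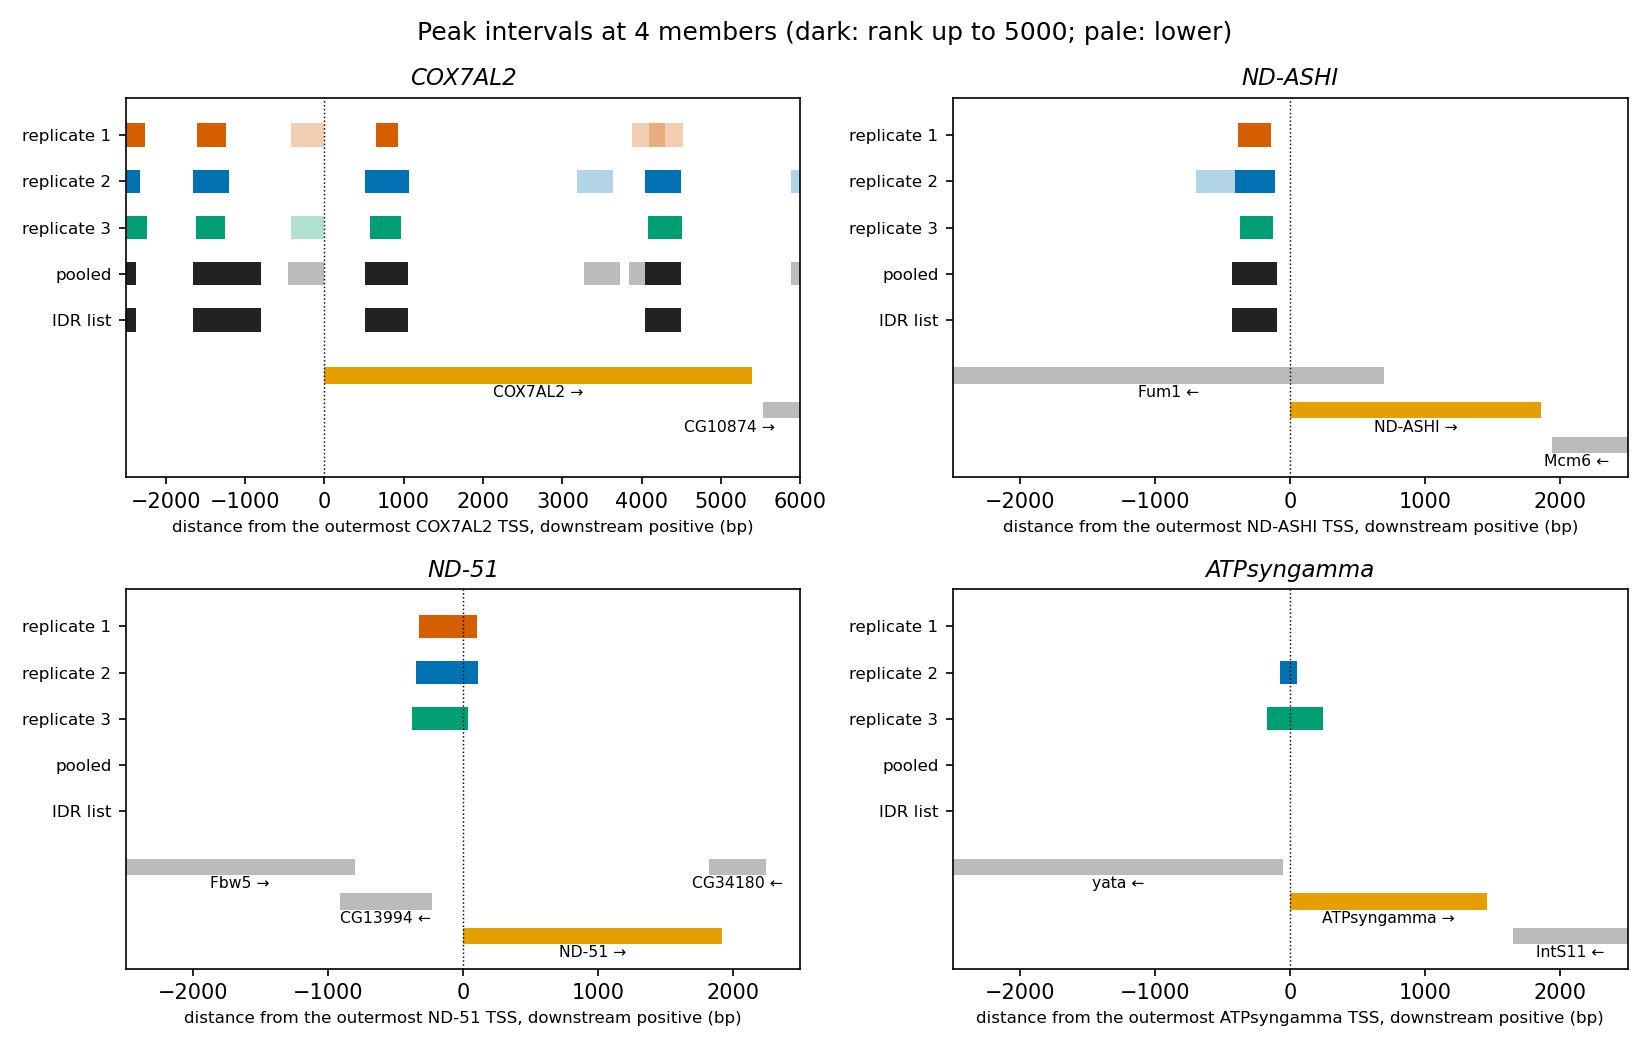
Peak intervals of each list at COX7AL2, ND-ASHI, ND-51 and ATPsyngamma, as distance in bp from the member's outermost TSS with downstream positive; dark bars have a rank up to 5000 and pale bars a lower one, and gene bodies are drawn below with arrows for their direction. COX7AL2 and ND-ASHI have dark bars in every list, whereas ND-51 has them in 3 replicates and ATPsyngamma in replicates 2 and 3, with no bar in the pooled and IDR-thresholded lists.

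In the full replicate lists, 18 members had a peak in replicate 1 (20.5%), 33 in replicate 2 (37.5%) and 30 in replicate 3 (34.1%), a mean of 30.7% ± 9.02 (SD, n = 3). Over all protein-coding genes the shares were 40.9%, 49.1% and 48.8%, a mean of 46.3% ± 4.64. The member share was below that of all genes in each replicate. Among peaks with a q-value of 0.05 or less, the members' shares were 6.82%, 20.5% and 14.8% against 18.3%, 32.6% and 26.3% of all genes. Without replicate 1 the mean share of members in the full lists was 35.8%, and that of all genes 49.0%.

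The standard members and the paralogues differed in which replicate held their peaks. Of the 64 standard members, 9 had a peak in replicate 1 (14.1%), 27 in replicate 2 (42.2%) and 24 (37.5%) in replicate 3. Among the 24 paralogues, 9 had one in replicate 1 (37.5%) and 6 in each of replicates 2 and 3 (25.0%). A peak in replicates 2 and 3 with none in replicate 1 was found for 13 standard members (20.3%) and 1 paralogue, against 9.93% of all genes. The reverse, a peak in replicate 1 only, was found for 5 paralogues (20.8%) and 1 standard member (1.56%), against 5.06% of all genes. Among the 5000 highest peaks, replicates 2 and 3 without replicate 1 called 5 members (5.68%), against 4.05% of all genes. Since this split follows a single library, it was not compared further.

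**Figure D3:**
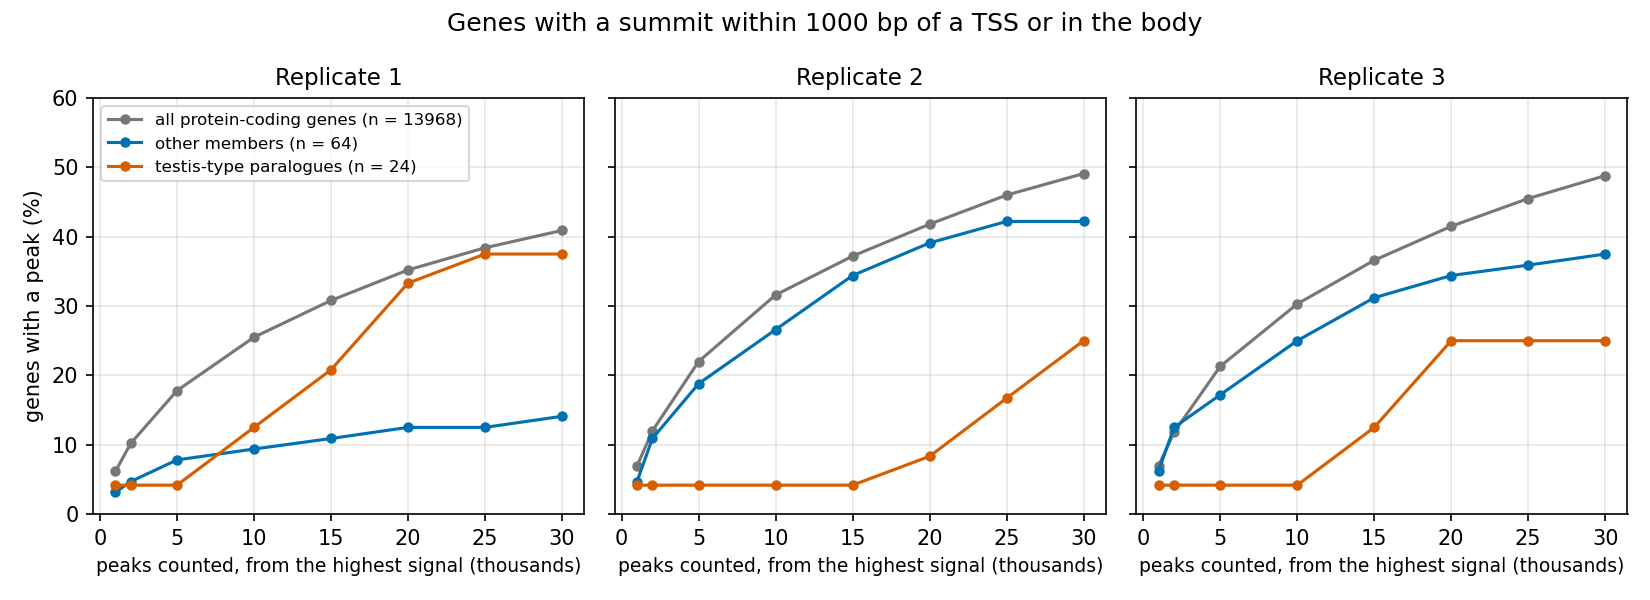
Share in percent of all protein-coding genes, standard members (shown as other members) and testis-type paralogues that were called, against the number of peaks counted from the highest signal for each replicate. At 30000 peaks the standard members reach 14.1% in replicate 1 and 42.2% and 37.5% in replicates 2 and 3, and the paralogues stay at 4.17% through the 5000 highest peaks of each replicate.

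Among the 5000 highest peaks of each replicate, COX7AL2 was the only paralogue called, 1 of 24 (4.17%) in each. Its body spans 5388 bp and it has 3 TSSs, against a median of 744 bp and a mean of 1.17 TSSs over the paralogues. The standard members were called in 5, 12 and 11 cases in replicates 1, 2 and 3, a mean of 14.6% ± 5.92, and all genes in 17.8%, 22.0% and 21.3%. Over replicates 2 and 3 alone the means were 18.0% of standard members and 21.7% of all genes. The 12 other paralogues with a replicate peak had it far down the lists. Their highest signals were 26.0 in replicate 1, 15.7 in replicate 2 and 18.7 in replicate 3, and none of these peaks reached a q-value of 0.05. ATPsynCF6L, a copy of coupling factor 6, ranked 13743, 23048 and 17077 in replicates 1, 2 and 3. ND-B14.5AL, a copy of a complex I accessory subunit, ranked 7991, 21588 and 11200. ND-20L, ND-24L, ND-49L, ND-51L2 and SdhAL had a peak in replicate 1 only, the best peak of each at ranks from 12515 to 21839. The remaining 5 of these paralogues had peaks in 1 or 2 lists, with the best peak in a list at ranks from 9144 to 28300.

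11 paralogues (45.8%) had no peak in any replicate list, against 36.3% of all genes, namely ND-51L1, SdhBL, SdhCL, UQCR-11L, COX4L, COX5BL, COX7AL, COX7CL, ATPsynGL, ATPsynbetaL and ATPsynepsilonL. For 20 of the 24 paralogues the parent symbol is also a member. Some peak in at least 1 replicate was found at both genes for 6 of these pairs, at the paralogue only for 4, at the parent only for 7 and at neither for 3. With replicates 2 and 3 alone these counts were 3, 2, 9 and 6. The peaks of a pair need not come from the same replicate. ND-20L and SdhAL had theirs in replicate 1 only, and their parents ND-20 and SdhA in replicate 2 only. ND-51 and COX7A enter more than once as parents, so the pairs are not all separate. ND-51 had high peaks in every replicate, whereas its copy ND-51L1 had none and ND-51L2 had a single peak at rank 17338. ATPsynCF6 and ATPsynCF6L were the pair with a peak at both genes in all 3 replicates, counted by gene and not by position. SdhB, the iron-sulfur subunit of complex II, had a single peak at rank 12731 in replicate 1, and its copy SdhBL had none. Paralogues are shorter, with a median body of 744 bp against 1148 bp for standard members, and 7 of 24 (29.2%) had a TSS of another gene within 1000 bp, against 44 of 64 standard members (68.8%). The part of these differences in the counts was not tested.

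By complex, at least 1 replicate list held a peak for 23 of 40 complex I members, 5 of 8 of complex II, 4 of 9 of complex III, 8 of 16 of complex IV and 5 of 15 of complex V, beside 63.7% of all genes. At least 2 lists held one for 26 members (29.5%), against 45.8% of all genes. A peak in all 3 lists was found for 10 members (11.4%), against 29.3% of all genes. They were ND-15, ND-51, ND-75, ND-ASHI, ND-B18, ND-MLRQ and ND-B14.5AL of complex I, COX7AL2 of complex IV, and ATPsynCF6 and ATPsynCF6L of complex V. No complex II or III member had a peak in all 3 lists. Any peak that met the rule counted, so the peaks of a gene need not share a position between lists. At ND-MLRQ the replicate 3 summits lay 384 bp upstream and 2512 bp downstream of the TSS. Those of replicate 1 lay 871 bp upstream and 3814 and 5734 bp downstream. Summits in replicates 1, 2 and 3 lay 457, 822 and 479 bp upstream at ATPsynCF6L, and 354, 572 and 655 bp downstream at ND-B14.5AL. With replicates 2 and 3 alone, at least 1 list held a peak for 19, 3, 4, 8 and 5 members of complexes I to V, beside 58.7% of all genes, and both lists for 24 members (27.3%), beside 39.2% of all genes. In complex II, SdhC and SdhD, the membrane anchors, had peaks in replicates 2 and 3, at ranks of 7791 and 11951 for SdhC and of 12330 and 15901 for SdhD. In complex III, UQCR-11 ranked 10809 and 6164 in replicates 2 and 3, and UQCR-14 ranked 5212 in replicate 2 alone. UQCR-C1 and UQCR-C2, the core proteins of complex III, had no peak in any replicate list.

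Of the 88 members, 43 (48.9%) had no peak in any replicate list, against 36.3% of all genes. In replicates 2 and 3 alone, 49 members (55.7%) had none, against 41.3% of all genes. Among them were the complex I subunits ND-23, ND-24, ND-30 and ND-49, the COX4 and COX6B subunits of cytochrome c oxidase, and ATPsynB, ATPsynD, ATPsynO and ATPsyndelta of the ATP synthase. ATPsynbeta, the catalytic subunit of the ATP synthase, had a single peak at rank 8600 in replicate 3. Just outside the 1000 bp window, ND-13B had an IDR-thresholded peak 1453 bp from its TSS with a signal of 267.7.

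Of the standard members' summits within 1000 bp of a TSS, 6 of 8 in replicate 1 (75.0%), 29 of 36 in replicate 2 (80.6%) and 22 of 29 in replicate 3 (75.9%) lay upstream. Over all protein-coding genes 57.7%, 62.1% and 64.2% lay upstream, so an upstream majority is general and no difference was tested. For the paralogues 7 of 14, 3 of 7 and 5 of 9 lay upstream. 15 members had an IDR-thresholded summit or a peak among the 5000 highest of a replicate, and 12 of these 15 (80.0%) have as their nearest neighbour a TSS on the opposite strand within 1000 bp. That holds for 30 of the other 73 members (41.1%), for 34.4% of all genes and for 1662 of the 3773 genes called in the same way (44.0%). The other 73 include every paralogue but COX7AL2, and paralogues less often have a close neighbour. On either strand, 7 of 24 paralogues (29.2%) had another TSS within 1000 bp, against 44 of 64 standard members (68.8%). The part of this mix in the contrast was not tested. The 12 are counted by the neighbour of the gene and not by the place of its peak. They include ND-15, whose IDR-thresholded summits all lay deep in its body. They also include ND-39, whose highest replicate 2 summit lay 1550 bp from its nearest own TSS. For 9 of the 15 the TSS closest to the highest summit belonged to another gene. The remaining 6 were COX7AL2, COX7B, ATPsyngamma, ND-B18, ND-SGDH and ND-MNLL, the last sharing its TSS with CG45089. ND-B18 ranked 9741, 4979 and 9414 in replicates 1, 2 and 3, with summits 12 to 75 bp from its TSS. ND-B8 had no peak in replicate 1 and ranks of 4401 and 9317 in replicates 2 and 3, and its replicate 2 summit was 74 bp from the TSS of Secp43.

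**Figure D4:**
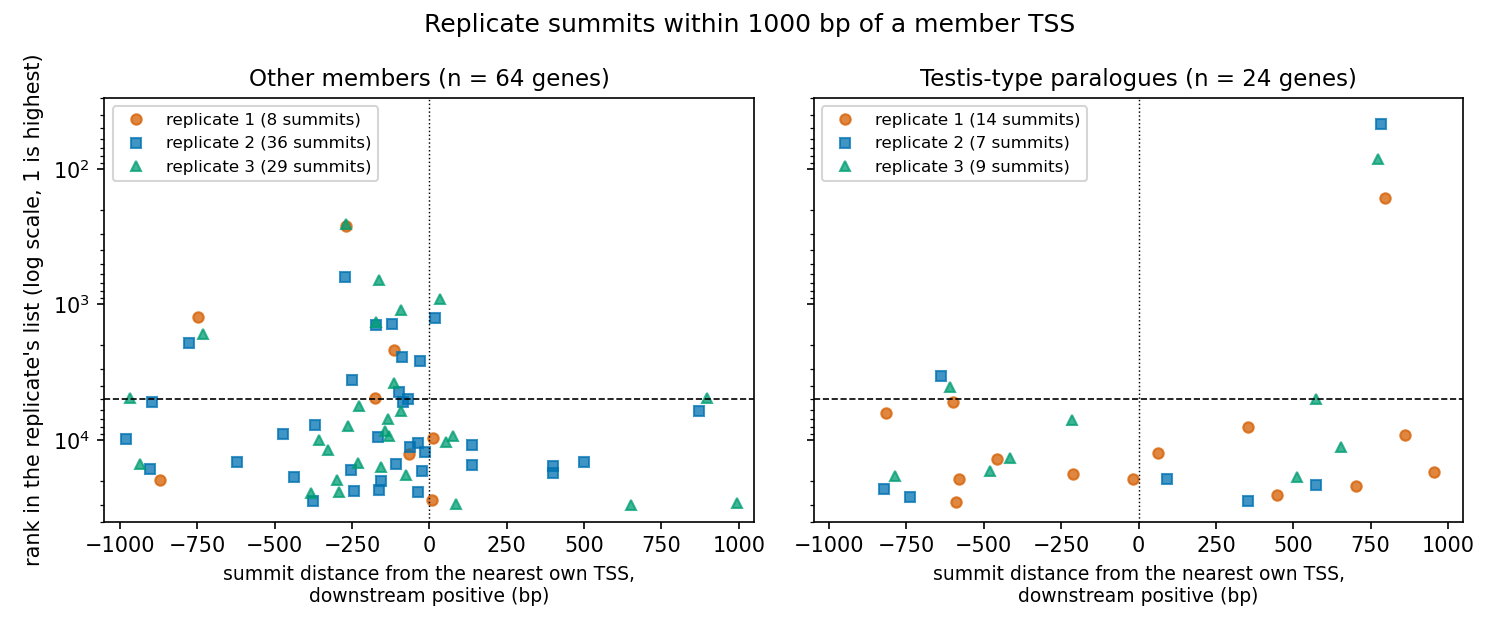
Position of every replicate summit within 1000 bp of a member TSS, in bp with downstream positive, against its rank on a logarithmic axis, for standard members (left, shown as other members) and testis-type paralogues (right); symbols mark replicates 1, 2 and 3 and the dashed line marks rank 5000. In replicate 2, 29 of 36 summits of standard members lie upstream, beside 62.1% over all genes, and the 3 highest summits of paralogues are those of COX7AL2.

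Motifs were searched as exact letters on both strands within 50 bp of summits. The receptor motif AGGTCA was present at 1 of the 17 member summits of the IDR-thresholded list (5.88%) and at 5.35% of all 5425 summits. A direct repeat of AGGTCA with 1 base of any kind between the copies (DR1), which overlaps the single motif and was allowed 1 mismatch, was at 0 of 17 and at 0.0922% of all. The GATA factor motif AGATAA was at 2 of 17 (11.8%) and at 9.62% of all. The motif TATCGATA, the DNA replication-related element (DRE) of many Drosophila promoters, and the E-box CACGTG were at 0 of 17, and at 0.406% and 0.848% of all. Of the 17 summits, 8 belong to ND-15 and 3 to COX7AL2, so they are not 17 separate genes.

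The same letters were counted in promoters, from 250 bases before to 50 after the start of each gene. AGGTCA was in 5 of 88 member promoters (5.68%) and in 5.82% of all 13968, and AGATAA in 16 (18.2%) and in 18.7%. CACGTG was in 4 (4.55%) and in 4.28%. DR1 was in 0 member promoters and in 0.0501% of all. TATCGATA was in 8 of 88 (9.09%) and in 8.95% of all, all 8 of them standard members. The standard members with a peak among the 5000 highest of at least 2 replicates held it in 0 of 10 cases, and the other standard members in 8 of 54 (14.8%). Member promoters thus held these motifs about as often as promoters at large.

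Related genes, whose symbols fall outside the naming rule, were taken from a list of 38 symbols, of which 37 matched the annotation. Of the 38, 8 are subunits with other names, 2 encode cytochrome c and 4 are assembly factors. The others are 12 genes of the citric acid cycle and pyruvate dehydrogenase, 7 regulators and 5 carrier and channel genes. In the IDR-thresholded list 10 of 37 were called (27.0%), against 20.3% of all protein-coding genes. One of the 10, Fum1, was called on the peak already counted for ND-ASHI. Of the 8 subunits with other names only blw, the alpha subunit of the ATP synthase, was called, with a signal of 387.3 and ranks of 1261, 2512 and 606 in replicates 1, 2 and 3. Both cytochrome c genes were called: Cyt-c-p, the somatic form, with a signal of 838.8 and ranks of 321, 234 and 204, and Cyt-c-d, the form used in the male germ line, with 685.2 and ranks of 369, 468 and 358. CIA30, an assembly factor of complex I, had the highest peak of these related genes, with a signal of 1855.0 and ranks of 35, 23 and 25. These 3 genes were high in every replicate. For each related gene the values are those of the highest summit that met the rule, which a neighbouring gene may share. Apart from the Fum1 peak, the position and nearest TSS of these summits were not examined.

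Of 12 genes of the citric acid cycle and pyruvate dehydrogenase, 6 were called (against the same 20.3% of all genes), namely kdn (citrate synthase, 165.2), Idh3a (123.6), Idh3g (504.5), Scsalpha1 (461.0), Fum1 (732.1) and Mdh2 (311.4), where each value is the signal in the IDR-thresholded list. The Fum1 peak is that of ND-ASHI, so these counts are not independent of the members'. The 5 mitochondrial carrier and channel genes and the 6 matched regulators, which include srl, ewg and TFAM, were not called. Among the regulators ERR, the estrogen-related receptor of the fly, ranked 6920 in replicate 2 and 620 in replicate 3 and had no peak in replicate 1.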

How the data were processed

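Per the labels, anti-GFP ChIP-seq of svp-eGFP animals was done in 3 biological replicates. Per the deposited manifests, the authors called peaks in each replicate against 1 shared control file, called peaks on the pooled reads, and derived an IDR-thresholded list on the dm6 build. The sources used here name no aligner, peak caller, IDR threshold or read depth. The deposited signal value of each peak, whose scaling is not stated, served only for ranks and descriptions inside a list. The deposited −log10 q-value was used to count peaks with q of 0.05 or less.

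Genes and transcription start sites (TSSs) came from Ensembl release 115 (BDGP6.54), and sequence from the RefSeq genome of Release 6 (dm6). A gene was called where a peak summit lay within 1000 bp of any of its TSSs or in its body, and no peak passed the end of its chromosome arm. A summit was counted for every gene that met this rule. The step that joins peaks to genes was checked on simulated data. Python 3.11.15, numpy 2.4.6, scipy 1.17.1 and pandas 2.3.3 were used. The members and lists were chosen with earlier results of these data known. All members could be named, and other genes were named where their TSS lay nearest to a member's summit or beside a member's TSS, or where they were on the list of related genes. With 1 group and peak lists only, no test was run. The exact binomial 95% intervals treat genes as independent draws, cover counting error only and are not a comparison with all genes. Alternatives were the distance, the list, the threshold, the assignment of peaks to genes and leaving out each replicate. The dm3 lists were not analysed here.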

Additional observations from a re-analysis of the deposited data

How the results depend on the processing

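Of the 57 alternative values computed for the 5 counts and shares, 34 stayed within 1.5 times the count, or within 1 SD for the share, and 23 did not. These are not separate checks, because the counts of called members are nested and the paralogue count rests on COX7AL2. The called members also hold the same ranks in the pooled and IDR-thresholded lists. The pooled list cut to equal length thus returned the same counts. Members called by TSS or body (8) numbered 5 at 500 bp, 20 in the whole pooled list (22.7%), 5 with the higher part of the IDR-thresholded peaks by signal and 3 when a summit went only to the gene with the nearest TSS (COX7AL2, COX7B and ND-MNLL), against 18.8%, 42.8%, 13.5% and 15.9% of all genes. Where IDR-thresholded summits had also to lie in a top 5000 peak of both remaining replicates, they numbered 4 (without replicate 2) to 6 (without replicate 1). The shares of all genes were then 14.6% and 16.0%. No IDR list of 2 replicates was made, so these values mix the left-out replicate with the limit on rank and can only fall. Among the 3 members of the nearest-TSS count, ND-MNLL shares a TSS with CG45089. Members called by TSS (7) numbered 3, 19, 4 and 3, against 12.6%, 36.2%, 10.1% and 12.7% of all genes. Without a replicate they numbered 3 to 5, against 10.8% to 12.2% of all genes. The paralogue count (1, COX7AL2) was 6 in the whole pooled list and 1 without any replicate. Standard members (7) numbered 4, 14, 4 and 2, and 3 to 5 without a replicate. For the paralogue and standard counts the shares of all genes are those given for the first count. The mean share of members per replicate list (30.7%) was 40.5% at 2000 bp, 11.7% and 16.7% for the 5000 and 10000 highest peaks and 14.0% for peaks with q of 0.05 or less, against 53.6%, 20.4%, 29.1% and 25.7% of all genes. Without a replicate this share was 27.3% to 35.8%, against 44.9% to 49.0% of all genes. COX7AL2 was called under every alternative run for the first count, and ND-ASHI under each of them but the nearest-TSS one. The q-value limit, the canonical transcripts, and the top 5000 peaks of at least 2 or all 3 replicates in place of the IDR-thresholded list (11 and 6 members, 12.5% and 6.82%, against 20.3% and 14.2% of all genes) were chosen after seeing the data. Depth is unknown, so absence from a list is not absence of binding. No paired analysis was possible because there is a single group.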

Other observations

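The mitochondrial genome, which encodes the remaining subunits of complexes I, III, IV and V, also appears in the lists. The IDR-thresholded list holds 18 peaks there with signals from 139.5 to 1604.3, and 16 of their summits fall in 9 of the 13 protein-coding genes. Replicate 1 lists 1 such peak, with a signal of 635.9 and rank 22, replicate 2 lists 27 and replicate 3 lists 24, with highest ranks of 30 and 42. The sources used here do not say how reads from mitochondrial DNA were treated, and the number of mitochondrial genome copies relative to nuclear DNA was not measured.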
